A study of Mus musculus with 40 samples.

Results

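Homeostatic microglia genes are the genes by which resting microglia, the resident macrophages of the brain, are usually recognised. The 9 genes described here are P2ry12, P2ry13, Gpr34, Cx3cr1, Csf1r, Siglech, Tmem119, Aif1 and Sall1. They were chosen by name, as every probe whose gene name on the array was one of the 9, and this gave 14 of the 55681 gene probes. Csf1r and Siglech had 3 probes each, Cx3cr1 had 2 and the other genes had 1. Each gene was read by its brightest probe over all arrays, and the other probes are given beside it.

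RNA from the cortex and from the cerebellum was hybridised to 40 one-colour Agilent arrays, 4 mice a group, from 10 groups. All mice had the C57Bl/6 background, and their sex is not given in the sources used here. Young mice were 2 months old, and all of them were wild-type animals on normal chow with 36 mg of α-tocopherol per kg. The aged mice, of 29 months, formed 4 groups in each region. Wild-type animals had either that normal diet or one deficient in α-tocopherol, and Ttpa-/- animals had either the deficient diet or one supplemented to 600 mg of α-tocopherol per kg. The α-tocopherol transfer protein, encoded by Ttpa, is used by the liver to keep vitamin E in the circulation. There was no group of Ttpa-/- mice on the normal diet and none of young Ttpa-/- mice. Young wild-type mice were compared with aged ones for aging, and aged groups were compared with each other for diet and genotype.

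The receptors of this set let microglia sense their surroundings. P2ry12 and P2ry13 bind ADP, and P2ry12 steers the processes of microglia towards released nucleotides. Gpr34 is a receptor for lysophosphatidylserine, Cx3cr1 binds the neuronal chemokine fractalkine (Cx3cl1), and Csf1r binds Csf1 and Il34, on which microglia depend for survival. Siglech is a surface protein of the family of sialic acid-binding lectins, and Tmem119 a membrane protein used as a marker. Aif1 is the actin-binding protein also called Iba1, and Sall1 a transcription factor that keeps the identity of microglia. Activated microglia are known to lower several of these genes, while Aif1 is also found in other macrophages.

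A level in what follows is the log2 of a probe's signal over the 75th percentile of its array, so that 0 is the signal at that percentile and a difference of 1 is 2-fold. The percentile lay between 365 and 925 units, and 28580 to 34128 probes per array were well above background. All 14 probes of the 9 genes were well above background on all 40 arrays, and no gene spot was saturated. A gene was called where limma's adjusted p (Benjamini-Hochberg, over all probes tested) was under 0.05 and the fold was over 1.5. Within a group the 4 arrays are 4 mice. Standard errors (SE) come from the limma fit over all 40 arrays unless another fit is named. They therefore use a spread between mice pooled over the groups of both regions, not that of the compared groups alone. Whether the cortex and the cerebellum came from the same mice is not given in the sources used here, and the regions were compared as separate samples. In tissue RNA, fewer cells of a type and less RNA per cell cannot be told apart.

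The region labels were checked with Gabra6 of cerebellar granule cells, which was well above background on all 20 cerebellar arrays and on no cortical one. One Ttpa probe was measurable in the cerebellum, where it was well above background on all 12 arrays of wild-type mice and on 1 of 8 arrays of Ttpa-/- mice. The other Ttpa probe was above background on none of the 24 wild-type arrays and on 1 of the 16 Ttpa-/- arrays, from the cerebellum on the deficient diet. The arrays lay on 5 slides of 8, and each slide held 2 whole groups. Aging in the cortex was compared within a slide, while aging in the cerebellum and the regions were compared across slides, so that there slide and group cannot be told apart by the fit. Of the diet and genotype comparisons, deficient against normal diet in wild-type cerebellum and supplemented against deficient diet in Ttpa-/- cerebellum were within a slide. Supplemented Ttpa-/- against deficient wild-type cortex was too. All others lay across slides, among them every cerebellar comparison of Ttpa-/- with wild-type mice.

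The probes named Siglech are shown first because they disagreed with each other. The last 30 bases of each 60-base probe are printed 5′ to 3′, with its mm9 position on chromosome 7, plus strand. Capitals mark bases inside a stretch of 20 that also occurs in a probe of another gene or, on either strand, in the promoter window of another gene (RefSeq, GRCm38.p6).
Siglech A_55_P2141013, chr7:63034088-63034147, brightest: TCTGTCTcAAAGAAAGAAAGAAAGAAAGAA
Siglech A_55_P2165790, chr7:63033826-63033885: ctccaaagttgaagaggctttgacttagtt
Siglech A_55_P2141008, chr7:63028608-63028667: ccctggtggattcctcccaacatttctgga
The brightest probe ended in a run of AAAG, which only 6 of the 55681 probes held 4 times in a row. It shared 20 bases with the windows of 7 other genes and with probes named Chat and Rgs7bp. Of all probes, 1668 shared such a stretch with the window of another gene, and none of the other 13 probes of the set did. The brighter Cx3cr1 probe shared 55 of its 60 bases with a single unnamed transcript's probe, TC1715571.

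Probes of the genes with the largest aging differences in the cerebellum (Aif1, Gpr34), and of the ADP receptors P2ry12 and P2ry13, of which 1 was called there, had no such stretch. Their last 30 bases read, with mm9 positions:
Aif1 A_51_P400543, chr17:35307959-35308018, minus strand: gaaacagtcgtgagccagagtcagactaaa
Gpr34 A_55_P2039684, chrX:13217863-13217922, plus strand: attacttcaaaatcttacatcacttgatgc
P2ry12 A_51_P338878, chr3:59020598-59020657, minus strand: cgaatcttaccataaaggacagacatgatg
P2ry13 A_51_P374900, chr3:59012054-59012113, minus strand: ctccatttaatatggcacatttggtccgca
The probes of P2ry13 and P2ry12 lay 8484 bases apart on the same strand of chromosome 3. No annotation of the mm9 build was used here, so whether a probe lies in coding or untranslated sequence is not given.

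In the young cortex the set stood about 4-fold above the young cerebellum. Of the 9 genes, 8 were called higher in the cortex, with differences between 1.64 (Sall1) and 2.09 (Tmem119) on the log2 scale, where 38.4% of all probes tested were called and 19.1% were called higher in the cortex. In the aged wild-type mice kept on normal diet 7 of 9 were called higher (33.6% of all probes called, 15.8% higher in the cortex). The median difference of the 9 genes was 2.01 in young and 0.96 in aged mice. Over all groups, each of the 20 cortical arrays lay above each of the 20 cerebellar arrays for P2ry12, P2ry13, Csf1r, Tmem119, Sall1 and Cx3cr1, a separation seen in 23.4% of the 24803 probes above background on all arrays. For Aif1 and Gpr34 the regions overlapped once the aged cerebellum was included.

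**Figure D1:**
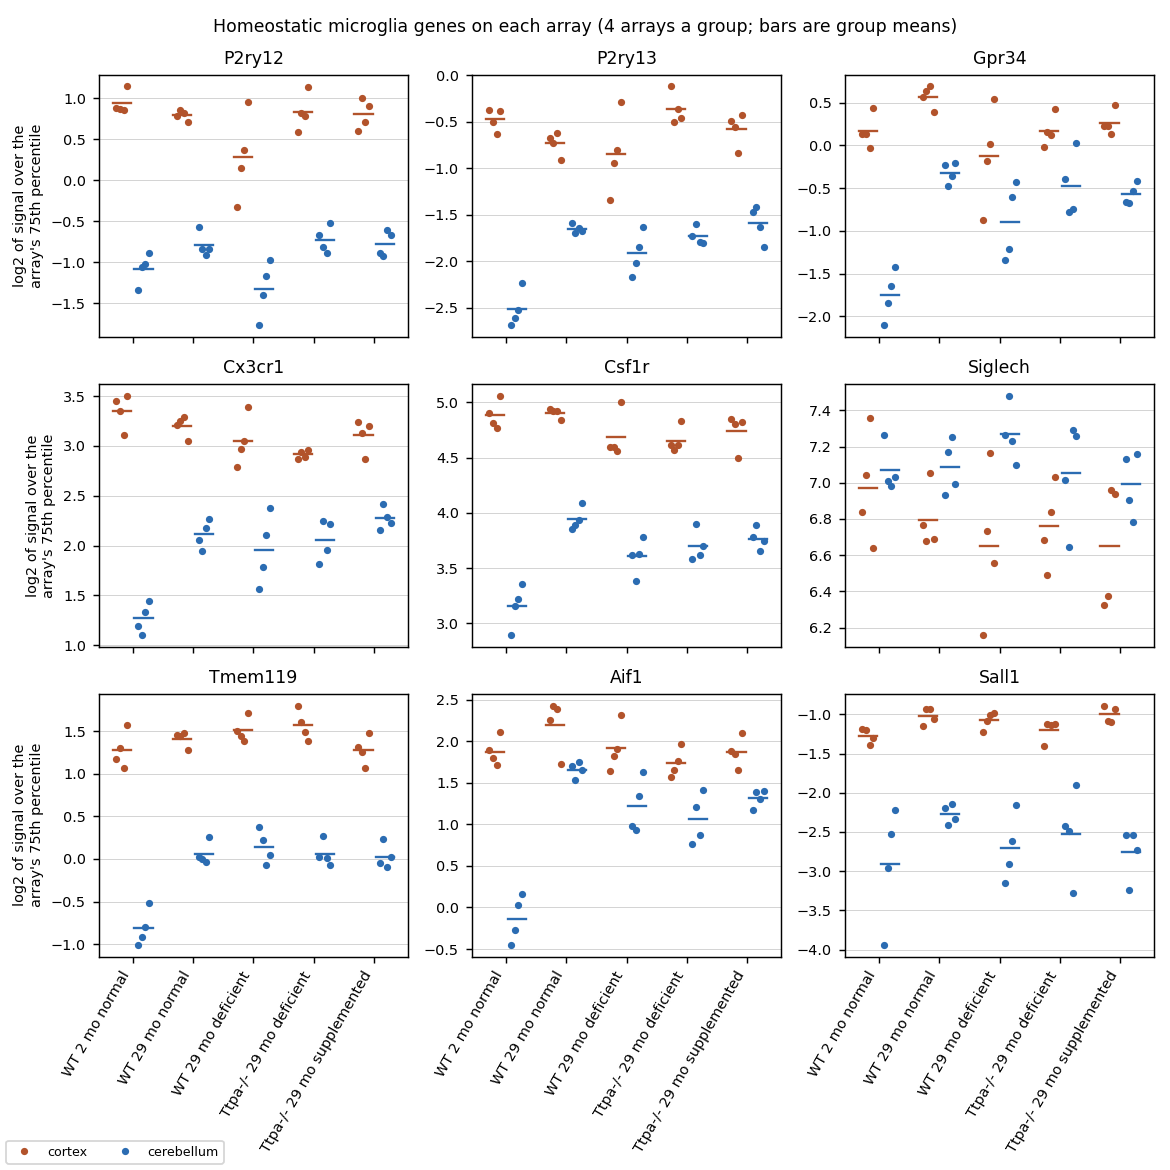
Level of each of the 9 genes (vertical axis, log2 of the signal over the 75th percentile of the array; scales differ between panels) in the 5 groups of each region, with 1 point an array, 4 arrays a group and a bar at the mean. For Aif1 the young cerebellum lay between -0.45 and 0.16 and all aged cerebellar arrays between 0.76 and 1.76, while Siglech, read by its repeat-bearing probe, overlapped between the regions.

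Aging in the cerebellum raised 6 of the 9 genes, and the remaining 3 were not called. The 6 were Aif1, Gpr34, Tmem119, P2ry13, Cx3cr1 and Csf1r, against 5.03% of all probes called and 3.99% called higher. Their 4 aged arrays lay above their 4 young arrays without overlap, which 19.1% of probes showed in 1 direction or the other. The median difference of the 9 genes was 0.84, beside -0.01 over all probes tested.

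Aif1 moved the most. Its level in the young cerebellum was -0.45, -0.27, 0.02 and 0.16, and in the aged cerebellum it was 1.70, 1.53, 1.76 and 1.65. The lowest aged array lay more than 1 log2 unit above the highest young one. The difference was 1.79 ± 0.17 (SE, n = 4 and 4), a 3.47-fold rise (limma, adjusted p = 1.92e-09).

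Gpr34, the lysophosphatidylserine receptor, came next. Its young levels were -2.11, -1.85, -1.65 and -1.42 and its aged levels -0.23, -0.48, -0.36 and -0.21, again with a wide gap. The difference was 1.44 ± 0.21 (SE), 2.71-fold (limma, adjusted p = 8.98e-06).

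The microglial marker Tmem119 was at -1.01, -0.91, -0.80 and -0.51 in the young cerebellum and at 0.02, -0.00, -0.04 and 0.26 in the aged one. All aged arrays were higher, by 0.87 ± 0.12 (SE) on the log2 scale (limma, adjusted p = 3.8e-06).

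P2ry13, the second ADP receptor, had young levels of -2.69, -2.61, -2.52 and -2.24. Its aged levels of -1.59, -1.70, -1.64 and -1.67 lay close together and above every young array. The rise was 0.86 ± 0.15 (SE; limma, adjusted p = 8.42e-05).

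The fractalkine receptor Cx3cr1 read 1.19, 1.1, 1.34 and 1.45 in the young and 2.06, 1.94, 2.18 and 2.27 in the aged cerebellum. Both of its probes separated the ages, with a rise of 0.84 ± 0.14 (SE) for the brighter and 0.93 ± 0.12 for the dimmer (limma, adjusted p = 3.93e-05 and 1.87e-06).

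Csf1r, the receptor for Csf1 and Il34, read 2.90, 3.15, 3.22 and 3.35 in the young and 3.86, 3.89, 3.93 and 4.09 in the aged cerebellum, without overlap. The rise was 0.79 ± 0.11 (SE; limma, adjusted p = 2.27e-06). Averaging its 3 probes gave 0.54, under the fold threshold. A second Csf1r probe (A_52_P602091) rose by 0.75 ± 0.15, and the third (A_55_P2025073) differed by 0.09 ± 0.10 (adjusted p = 0.675).

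P2ry12, the receptor most used to mark resting microglia, was not among the called genes. Its young cerebellar levels were -1.34, -1.06, -1.03 and -0.90 and its aged ones -0.58, -0.84, -0.91 and -0.84, so that 1 aged array lay within the young range. The difference was 0.29 (95% interval -0.06 to 0.64; limma, adjusted p = 0.345). That interval lies below the intervals of Aif1 (1.45 to 2.14) and Gpr34 (1.01 to 1.87) and overlaps those of the other called genes. Sall1 was at -3.94, -2.96, -2.53 and -2.21 in the young and at -2.19, -2.41, -2.15 and -2.33 in the aged cerebellum. Its young arrays were the most spread of the set (SD 0.75, n = 4), and its difference of 0.64 ± 0.25 (SE) was not called (limma, adjusted p = 0.095).

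The separation was also seen with the other aged groups included. For the same 6 genes all 16 aged cerebellar arrays, from 3 diets, both genotypes and 2 slides, lay above all 4 young ones, which 6.34% of probes showed in either direction. The 16 include the 4 aged arrays by which the 6 genes were called. The young arrays lay on a further slide that held no aged cerebellar array, so age and slide cannot be told apart here either. For P2ry12 this was true of 9 of the 16 arrays and for Sall1 of 4.

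In the cortex none of the 9 genes was called for aging, a comparison made within a slide, where 2.09% of all probes were called. In the limma fit over all 40 arrays none reached an unadjusted p under 0.05, and the smallest adjusted p was 0.379. A limma fit of these 2 groups alone called none either. Its smallest adjusted p was 0.163, for Gpr34 at 0.40 ± 0.12 (SE), and Sall1 was at 0.25 ± 0.09 and P2ry13 at -0.26 ± 0.10. Aif1 was at 1.89, 1.80, 1.71 and 2.11 in the young and 2.25, 2.43, 2.39 and 1.73 in the aged cortex, with overlap from 1 aged array. The largest rise was that of Gpr34 at 0.40 (95% interval -0.03 to 0.83) and the largest fall that of P2ry13 at -0.26 (-0.56 to 0.04). P2ry12 in the young cortex was at 0.88, 0.87, 0.85 and 1.14 and in the aged cortex at 0.78, 0.85, 0.82 and 0.71, a small shift of -0.15 without overlap. The young and aged arrays did not overlap for 2 of the 9 genes, P2ry12 and Sall1, beside 14% of all probes.

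**Figure D2:**
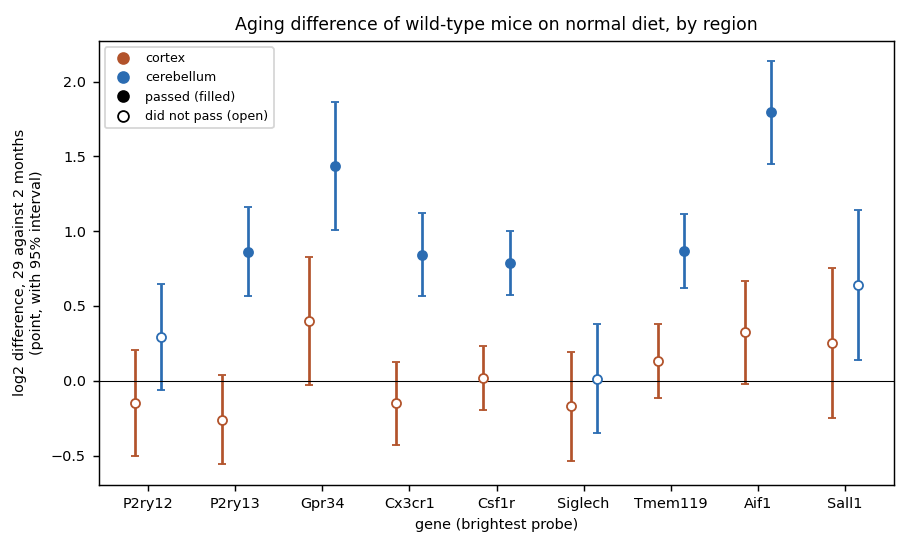
Difference in level between wild-type mice of 29 and 2 months on the normal diet (vertical axis, log2, with the 95% interval of the limma fit) for each gene in the cortex and in the cerebellum, 4 arrays a group. In the cerebellum the 6 filled points lie between 0.79 (Csf1r) and 1.79 (Aif1), and in the cortex all 9 points are open.

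The aging difference was larger in the cerebellum than in the cortex by the test of the difference itself for 5 of the 9 genes, beside 1.46% of all probes. The cortical ages shared a slide and the cerebellar ages did not, so slide and age cannot be told apart in this excess. The excess was 1.47 ± 0.24 (SE) for Aif1, 1.12 ± 0.21 for P2ry13, 1.0 ± 0.19 for Cx3cr1, 0.77 ± 0.15 for Csf1r and 0.73 ± 0.17 for Tmem119. For Gpr34 it was 1.04 ± 0.30 and not called (limma, adjusted p = 0.0676), and for P2ry12 it was 0.44 ± 0.25 (adjusted p = 0.523). With arrays scaled by their median, of the 9 genes only Aif1 was called (adjusted p = 0.0156).

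The gap between the regions in each age gives the same comparison from the other side. For Aif1 the cortex exceeded the cerebellum by 2.01 ± 0.17 (SE) in young and by 0.54 ± 0.17 in aged mice, the latter under the fold threshold. For P2ry12 the gap was 2.02 ± 0.17 and 1.58 ± 0.17, and for Sall1 1.64 ± 0.25 and 1.25 ± 0.25.

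Other genes of microglia were described by lists drawn up beside the set, each gene by its brightest probe. Among 22 further homeostatic genes, 21 were tested for aging in the cerebellum, where 10 were called higher and 1 (Il10ra, at -0.80) lower with a median of 0.63, and in the cortex, where 2 were called higher with a median of 0.11. The ligand genes differed by region. Csf1 rose in both the cortex (0.82 ± 0.10, SE) and the cerebellum (0.63 ± 0.10). Il34 rose in the cerebellum by 0.95 ± 0.17 and was at -0.15 ± 0.17 in the cortex, and the fractalkine gene Cx3cl1 rose in the cerebellum by 0.68 ± 0.16 and was at -0.30 ± 0.16 in the cortex. In the young mouse both stood higher in the cortex, Il34 by 3.12 ± 0.17 and Cx3cl1 by 3.46 ± 0.16.

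Beside these counts stand 3.99% of all probes called higher with age in the cerebellum and 2.09% called in either direction in the cortex. Of 11 ligands and signalling partners, 7 were called higher with age in the cerebellum and 2 in the cortex. Of the 7 microglial transcription factors tested in each region, 4 were called higher in the cerebellum and 3 in the cortex. Pan-myeloid genes, expressed by all macrophages, were called higher in 17 of 19 in the cerebellum (median 1.75) and 12 of 19 in the cortex (median 0.73). Genes of activated microglia were called higher in 14 of 20 (median 2.63) and 13 of 20 (median 1.71). Tyrobp, an adaptor of microglial receptors, stands in both the partner and the pan-myeloid list. In the cortex the 9 homeostatic genes had a median of 0.02, and those lists 0.73 and 1.71.

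**Figure D3:**
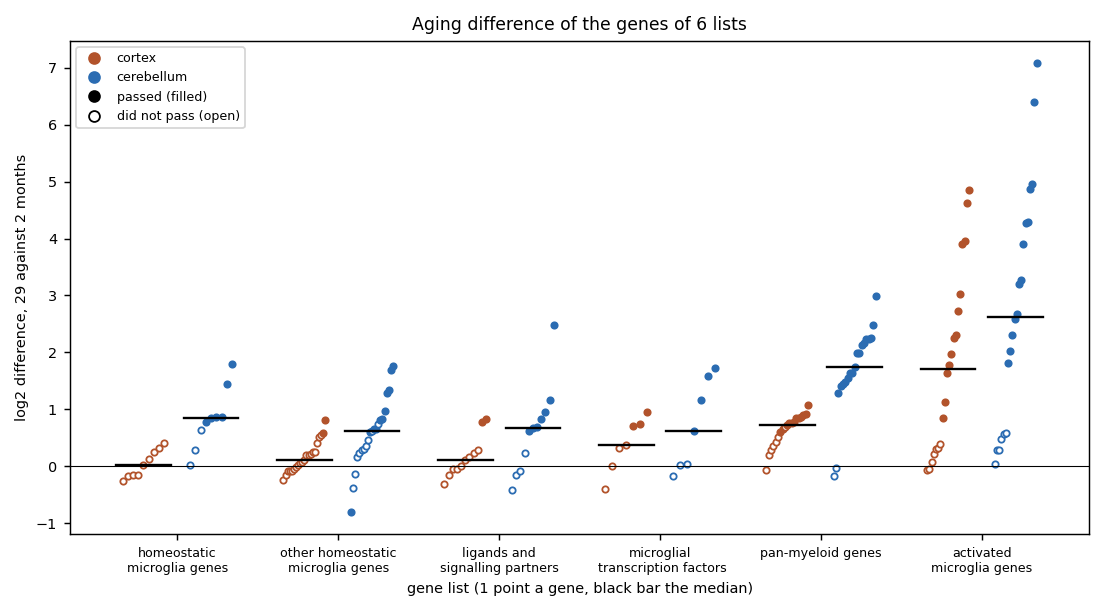
Difference in level between 29 and 2 months in wild-type mice on the normal diet (vertical axis, log2) for every tested gene of 6 lists, 1 point a gene, by region; black bars are medians and filled points passed the test and the fold. The 9 homeostatic genes have medians of 0.02 in the cortex and 0.84 in the cerebellum, and the activated microglia genes 1.71 and 2.63.

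Some markers of other cells also differed with age in the cerebellum. Border macrophage markers were called higher in 2 of 8 (Ms4a7 by 2.22 ± 0.17, SE, and Pf4 by 0.91 ± 0.27), with a summed level (in multiples of the 75th percentile) of 2.08 to 2.48 in young and 3.81 to 4.46 in aged arrays. Of that list of 10, Mrc1, Pf4, Cbr2, F13a1, Ms4a7 and Stab1 were above background on all 20 cerebellar arrays, Folr2 on 19, Lyve1 on 14, Siglec1 on 7 and Cd163 on 1. Monocyte and neutrophil markers were called higher in 1 of 6, with sums of 1.60 to 5.22 and 5.62 to 55.6, and their receptor Ccr2 was above background on 4 of 20 arrays. T cell markers were called higher in 2 of 3 tested (Cd2 by 2.37 ± 0.54 and Lck by 0.81 ± 0.16), with sums of 0.92 to 1.47 and 1.3 to 1.52. Of that list of 7, Cd3e and Lck were above background on all 20 cerebellar arrays, Cd2 on 13, Cd3d on 7, Cd3g on 3, Cd8b1 on 1 and Cd8a on 0. Red cell markers were called higher in 3 of 4, with sums of 3.33 to 8.14 and 13.1 to 95.9. The astrocyte marker Gfap rose by 1.87 ± 0.18, alone of 5. Choroid plexus markers were called lower in 2 of 4 (Ttr at -7.70 ± 1.27 and Kl at -2.30 ± 0.74), with sums of 2.96 to 235 in young and 0.98 to 1.32 in aged arrays. None of 5 neuronal, 5 oligodendrocyte and 5 endothelial markers was called. In the cortex, where 2.09% of all probes were called, markers of other cells differed with age too. Called higher were Gfap (1.51 ± 0.18), the border macrophage genes Ms4a7 (0.97 ± 0.17) and F13a1 (0.66 ± 0.18), S100a9 (3.29 ± 0.77), S100a8 (3.26 ± 0.79) and Hbb-b2 (2.93 ± 0.87). The striatal gene Adora2a was called lower (-1.82 ± 0.43). The part of these cells in the differences of the 9 genes was not tested in either region.

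The Siglech probes gave 3 answers. The brightest probe was nearly flat, between 6.16 and 7.36 in the cortex and between 6.65 and 7.48 in the cerebellum, and it was called in no comparison. Probe A_55_P2165790 stood at 1.16, 1.08, 1.09 and 1.24 in the young cortex and at -1.17, -0.99, -0.80 and -0.65 in the young cerebellum. It was higher in the cortex by 2.05 ± 0.15 (SE; limma, adjusted p = 1.35e-13), close in size to the other genes of the set. Probe A_55_P2141008, the farthest upstream, went the opposite way, with 2.52, 2.60, 2.28 and 2.87 in the young cortex and 3.79, 3.46, 3.43 and 3.27 in the young cerebellum, a difference of -0.92 ± 0.18.

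With age in the cerebellum, A_55_P2165790 was at 0.41 ± 0.15 (SE; limma, adjusted p = 0.0766) and A_55_P2141008 fell by 0.63 ± 0.18 (adjusted p = 0.017). Deviations of arrays from their group means told the probes apart too. Over the 40 arrays the correlation of A_55_P2165790 with the other 8 genes had a median of 0.75, that of A_55_P2141008 a median of -0.21 and that of the brightest probe a median of -0.12. Pairs of the other 8 genes had a median of 0.60, from -0.00 to 0.90 (P2ry12 with Gpr34). These correlations describe arrays that share a scaling and carry no test.

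**Figure D4:**
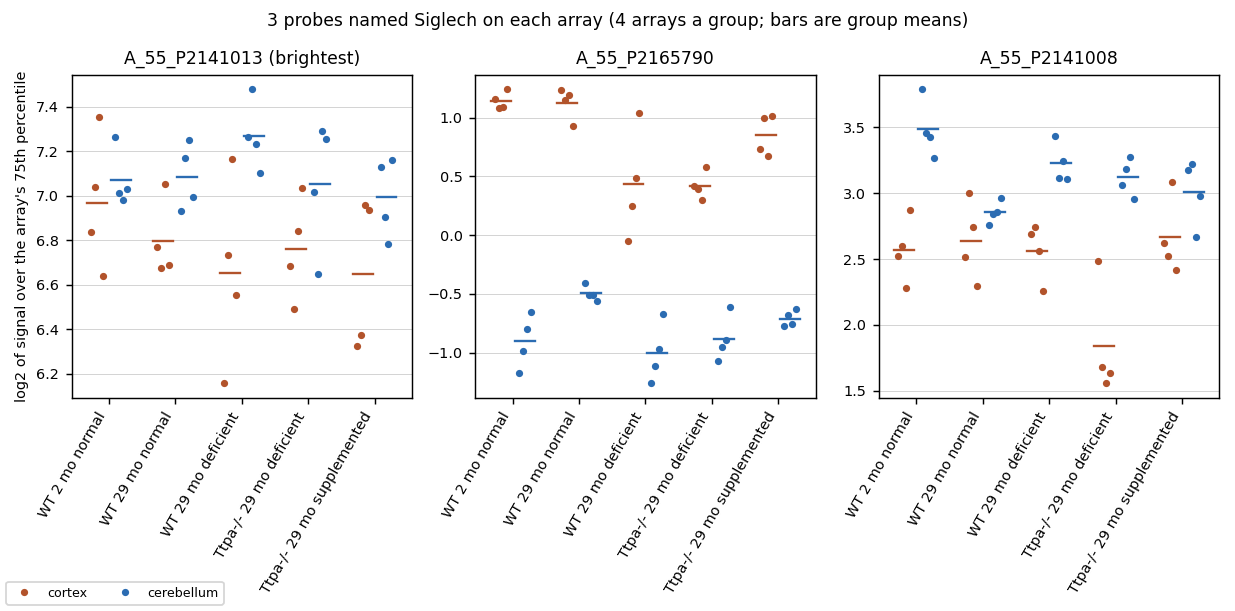
Level of the 3 probes named Siglech (vertical axis, log2 of the signal over the 75th percentile of the array; scales differ between panels) in the 5 groups of each region, 1 point an array and a bar at the mean of 4. The regions overlap for the brightest probe, lie apart for A_55_P2165790 with the cortex higher, and stand the other way round by their means for A_55_P2141008.

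Diet and genotype were compared among aged mice in 6 ways per region. The comparisons share groups (3 of them the wild-type controls on normal diet), so they are not independent. None of the 9 genes, by their brightest probes, was called in the cortex in any of them, where between 0.0316% and 4.75% of all probes were called. With Siglech read by A_55_P2165790, 1 gene was called in the cortex of deficient Ttpa-/- mice and 1 in that of deficient wild-type mice, each against the normal diet. In the cerebellum Aif1 was called lower in Ttpa-/- mice on the deficient diet than in wild-type controls, and P2ry12 was called higher in Ttpa-/- than in wild-type mice on the deficient diet. Both calls were made across slides, so genotype and slide cannot be told apart in them.

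In the cerebellum of Ttpa-/- mice on the deficient diet Aif1 read 0.76, 1.21, 0.87 and 1.42, all below the 4 wild-type arrays on the normal diet (1.53 to 1.76). The difference was -0.59 ± 0.17 (SE; limma, adjusted p = 0.018), a fold of 1.51, while 4.46% of all probes were called. It sat at the fold threshold, and it was no longer called without replicate 1 or 3 of either group, nor with median scaling, normexp background correction, a fit of the 2 groups alone or the methods' t-test with adjusted p. The dimmer Cx3cr1 probe was lower by 0.52 ± 0.12 in these mice (adjusted p = 0.00538, fold 1.43), where the brighter one was at -0.05 ± 0.14. In this comparison 5 of 19 pan-myeloid genes and 6 of 20 activated microglia genes were called lower and none higher. Of 21 further homeostatic genes tested, 2 were called lower and 0 higher, Fcrls at -1.43 ± 0.23 (SE) and Cd33 at -0.70 ± 0.20. Of the border macrophage markers 2 of 8 were called lower, Ms4a7 at -0.75 ± 0.17 (SE) and Cbr2 at -0.62 ± 0.17, with sums of 2.59 to 3.15 against 3.81 to 4.46 in the wild-type arrays. Gfap of astrocytes and Mbp of oligodendrocytes were also called lower, at -0.64 ± 0.18 and -0.62 ± 0.20, each 1 of 5 on its list. The part of these cells in the Aif1 difference was not tested.

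In the cortex the same comparison called 4.75% of all probes and none of the 9 genes. Aif1 was at -0.46 ± 0.17 (SE; limma, adjusted p = 0.0541), and P2ry13 was higher by 0.37 ± 0.15 (adjusted p = 0.0723). Of the activated microglia genes 8 of 20 were called lower and 1 (Igf1) higher. Of 21 further homeostatic genes tested, 1 was called higher (Crybb1 at 0.97 ± 0.21, SE) and 0 lower. Siglech probe A_55_P2165790 was called lower, at 0.42, 0.39, 0.30 and 0.58 against 1.23, 1.15, 1.2 and 0.92, without overlap (-0.70 ± 0.15; adjusted p = 0.00159). Probe A_55_P2141008 fell by 0.80 ± 0.18 there, with 1 array (2.48) inside the wild-type range. Between the regions this probe's difference itself differed by 1.06 ± 0.25 (adjusted p = 0.00947, beside 3.38% of all probes called).

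P2ry12 had its lowest mean in wild-type mice on the deficient diet in both regions. Its cerebellar levels there were -1.77, -1.40, -1.17 and -0.98, below all 4 arrays of the normal diet (-0.91 to -0.58). In the cortex they were -0.33, 0.15, 0.37 and 0.95, the most spread of the cortical groups (SD 0.53, n = 4), with 1 array above the whole normal-diet range of 0.71 to 0.85. Against the normal diet the difference was -0.54 ± 0.17 (SE; limma, adjusted p = 0.0654) in the cerebellum, within a slide, and -0.51 ± 0.17 (adjusted p = 0.152) in the cortex, across slides, and neither was called. All probes called in these comparisons were 1.28% and 0.223%. Of 21 further homeostatic genes tested, 2 were called lower in this cerebellum and 0 higher. These were Slc2a5 at -1.15 ± 0.28 (SE) and Fcrls at -0.97 ± 0.23 (limma, adjusted p = 0.0193 and 0.018). In this cortex 0 of 21 were called.

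Gpr34 followed P2ry12 in these mice. It read -1.34, -1.21, -0.61 and -0.43 in the cerebellum and -0.88, -0.18, 0.02 and 0.54 in the cortex, with differences of -0.58 ± 0.21 and -0.70 ± 0.21 (SE; limma, adjusted p = 0.102 and 0.107) that were not called. Siglech probe A_55_P2165790 was called lower in this cortex, by 0.70 ± 0.15 (adjusted p = 0.0356). Within this cortical group replicate 4 was the highest array for P2ry12, P2ry13, Gpr34, Cx3cr1, Csf1r, Tmem119 and Aif1.

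The mean P2ry12 level of both Ttpa-/- groups was above that of wild-type mice on the deficient diet, without overlap in the cerebellum and with overlap in the cortex. In the cerebellum the deficient Ttpa-/- arrays were at -0.67, -0.82, -0.89 and -0.53, above the wild-type arrays without overlap (0.60 ± 0.17, SE; limma, adjusted p = 0.0196, fold 1.52; 4.94% of all probes called). This call too sat at the fold threshold and was lost without replicate 1 or 2 of the wild-type or replicate 4 of the Ttpa-/- arrays, and also with normexp background correction (0.49), a fit of the 2 groups alone or the methods' t-test with adjusted p. The supplemented Ttpa-/- arrays were at -0.90, -0.93, -0.61 and -0.67 and higher by 0.55 ± 0.17 (adjusted p = 0.0466, fold under 1.5; 3.5% called). In the cortex P2ry12 and P2ry13 were higher in the deficient Ttpa-/- mice than in the deficient wild-type mice by 0.55 ± 0.17 and 0.48 ± 0.15 (adjusted p = 0.0353 and 0.0272), also under the fold threshold, where 3.07% of probes were called. The supplemented Ttpa-/- cortex, on the same slide as the deficient wild-type cortex, had P2ry12 at 0.60, 1.01, 0.71 and 0.90 and a difference of 0.52 ± 0.17. This difference was not called, and 0.0316% of probes were. The smallest adjusted p of the 9 genes there was 0.327 (limma). A limma fit of the 2 groups alone gave P2ry12 0.52 ± 0.26 (adjusted p = 0.696).

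No gene was called for the supplemented against the deficient diet in Ttpa-/- mice, in the cortex (3.31% of probes called) or in the cerebellum (0.343%, within a slide). P2ry12 differed by -0.03 (95% interval -0.38 to 0.33) in the cortex and by -0.05 (-0.41 to 0.30) in the cerebellum. Siglech probe A_55_P2141008 was higher by 0.83 ± 0.18 (SE) in the supplemented cortex (limma, adjusted p = 0.00282), at 2.62, 2.52, 3.09 and 2.42 against 2.48, 1.68, 1.56 and 1.63. Supplemented Ttpa-/- mice against the aged wild-type controls gave no call in either region (0.092% and 4.91% of probes called), with differences of the 9 genes between -0.33 and 0.15 in the cortex and between -0.49 and 0.16 in the cerebellum.

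**Figure D5:**
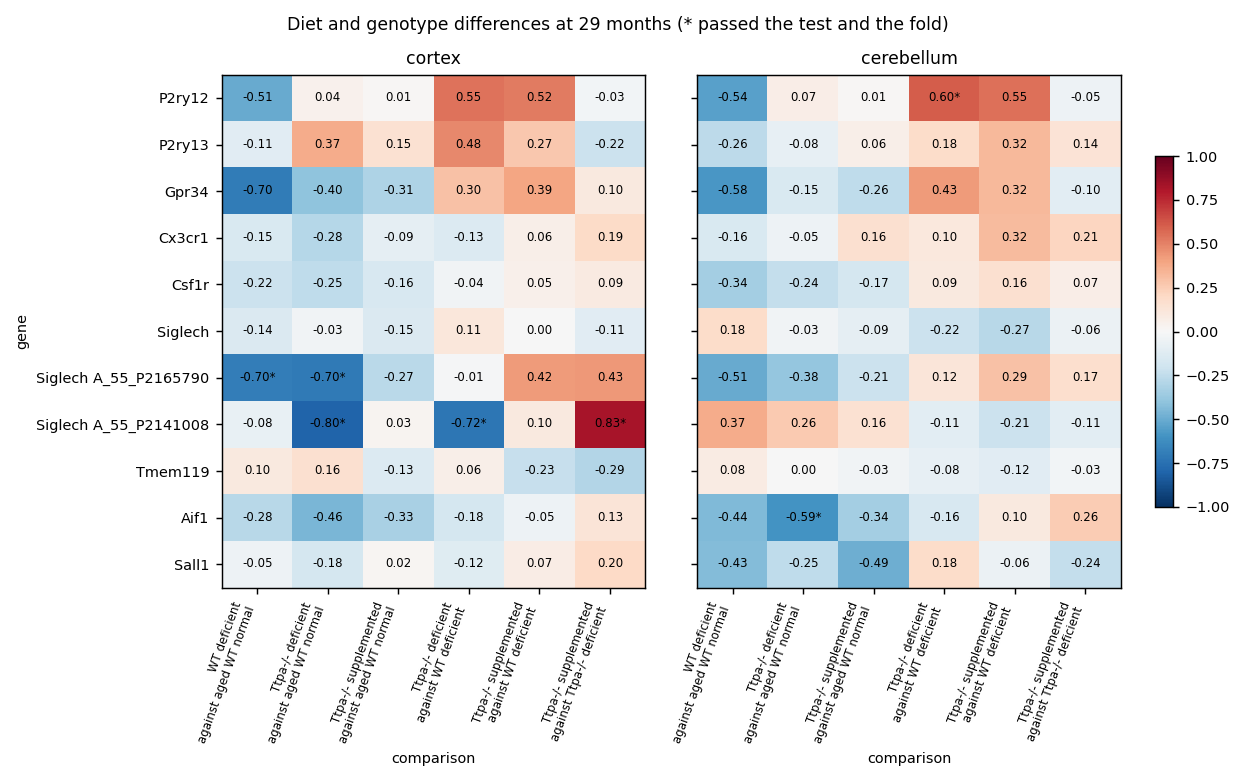
Difference in level (log2, colour and number) of each gene in 6 comparisons among mice of 29 months, by region, with the other 2 Siglech probes; an asterisk marks a call. Of the 9 genes by their brightest probes, Aif1 (-0.59) and P2ry12 (0.60) in the cerebellum carry an asterisk, and the column of deficient against normal diet in wild-type mice is blue (below 0) for 8 of 9 genes in the cortex and 7 of 9 in the cerebellum.

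The genes whose levels ran most closely with each member were taken over the 40 arrays after removing the mean of each region, among 24803 probes above background on all arrays. For P2ry12 these were the fructose transporter gene Slc2a5 (r = 0.89), 3830406C13Rik (0.85) and Nnt (0.84). Csf1r ran with Gngt2 (0.90) and Aif1 (0.89), and Aif1 with Ptpn18 (0.96) and Gngt2 (0.95). Tmem119 ran with the complement gene C1qc (0.88), Tnfrsf1a (0.87) and Gpsm3 (0.87), and Gpr34 with Capn3 (0.86), Aif1 (0.86) and Gngt2 (0.84). Cx3cr1 ran with TC1715571 (0.98), whose probe shares its sequence, then Csf1r (0.87) and Maob (0.86). P2ry13 ran with a probe with no gene name (0.80), Olfml3 (0.78) and Cx3cr1 (0.78), and Sall1 with ENSMUST00000026672 (0.83), C030030A07Rik (0.81) and Arhgef6 (0.78). The brightest Siglech probe ran with Slc10a1 and 2 unnamed probes (0.97 to 0.98), none of them a gene of the microglia lists, and these are descriptions over arrays that share groups.

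Promoter windows of 300 bases (250 before and 50 after the start; RefSeq, GRCm38.p6) were found for 6 of the 9 genes, 8 windows in all, and were searched for letters of the site of the macrophage factor PU.1, since 6 of the 9 genes rose together in the cerebellum. The string AGGAAGT, searched on both strands, occurs in 9.35% of all 32851 windows. It was in the windows of P2ry12 and Sall1 (1 of 3 windows), which were not called for aging, and of none of the genes that rose. Of the 6 genes that rose, Gpr34, Csf1r and Tmem119 had no window and were not searched. The string GAGGAA, which can overlap it, occurs in 28.3% of all windows and was in those of P2ry13, Siglech and Aif1. The longer string GAGGAAGT, which joins both, occurs in 3.2% of all windows and was in none of the 8. The 60 bases around a match upstream of the start read, 5′ to 3′ on the gene's strand with the match in capitals:
P2ry12, chr3:59263005-59263064, minus strand: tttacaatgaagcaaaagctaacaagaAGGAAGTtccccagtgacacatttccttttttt
P2ry13, chr3:59210898-59210957, minus strand: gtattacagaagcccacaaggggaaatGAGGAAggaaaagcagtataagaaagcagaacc
Aif1, chr17:35176053-35176112, minus strand: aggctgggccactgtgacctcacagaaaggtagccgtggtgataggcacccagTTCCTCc
A match describes letters in a window and no binding was measured. The brightest probe of the PU.1 gene (Sfpi1) was well above background on 3 of the 40 arrays and on 0 of the 20 cerebellar ones. A part of PU.1 in the rise was not tested.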

How the data were processed

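Per the file headers, the authors scanned one-colour Agilent arrays and deposited Feature Extraction output with a processed intensity per spot, mm9 probe positions and gene names. The version, 10.7.3.1, was read from the grid placement field of the headers, and the sample labels name another version. The authors also deposited a table of log2 values, which differed from the values computed here, less the mean of each probe, by a median of 0.00085. Here flagged spots (95 to 148 per array) were left out, the log2 of the processed intensity was centred on the 75th percentile of each array, and repeated spots were averaged. Of 55681 probes, 55589 had a value on every array. Linear models (limma 3.58.1 in R 4.3.3) were fitted over all 40 arrays with 10 group terms. Adjusted p-values (Benjamini-Hochberg) covered probes that were well above background throughout 1 or more of the groups compared. Other normalizations, filters, tests, probes and left-out arrays were tried as alternatives. No comparison had all 4 same-numbered pairs of arrays deviating together (r over 0.1), so the replicate number was not used as a block.

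The genes named are the 9 members by their brightest probe, with their other probes, the ligands and partners of the receptors, and the 3 genes most alike, of which some are not reported here. The members and lists were chosen with earlier results of these data known. The number of arrays limits the precision.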

Additional observations from a re-analysis of the deposited data

Results flagged for a closer look

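The aging difference was tested between the regions for each of the 14 probes, and in the cerebellum it exceeded that of the cortex for Aif1 (1.47 on the log2 scale), P2ry13 (1.12), Csf1r (0.77, its brightest probe), Tmem119 (0.73) and both probes of Cx3cr1 (1.05 and 1.0). Only the cortical ages shared a slide, so slide and age cannot be told apart in this excess. The difference of Ttpa-/- mice on the deficient diet from aged wild-type mice also differed between the regions for Siglech probe A_55_P2141008 (1.06) and for the dimmer Cx3cr1 probe (-0.56, under the fold threshold). These are 8 of 56 differences examined, taken by adjusted p under 0.05 alone, with each probe of a gene counted separately. The share of all probes at that threshold is not given here. With the fold threshold added, 6 of the 14 probes passed for aging, beside 1.46% of all probes. For the deficient Ttpa-/- mice 1 of 14 passed, beside 3.38%.

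Single arrays stood apart from the other 3 of their group in 9 of 140 groups examined, where chance sets apart 7. In the cortex of wild-type mice on the deficient diet, replicate 4 stood high for 2 probes of Csf1r (1.06, next 0.45, and 5.0, next 4.6) and for the dimmer Cx3cr1 probe (0.91, next 0.35). In Ttpa-/- cortex, replicate 4 on the deficient diet was high for Csf1r (4.83, next 4.61), replicate 3 on the supplemented diet was low for it (4.49, next 4.8), and replicate 1 on the deficient diet was low for Sall1 (-1.41, next -1.14) and high for Siglech probe A_55_P2141008 (2.48, next 1.68). The remaining values were P2ry12 in young cortex, replicate 4 (1.14, next 0.88), and the dimmer Cx3cr1 probe in aged wild-type cerebellum, replicate 2 (-0.39, next -0.24).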

How the results depend on the processing

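The counts of called genes for aging in the cortex (0) and cerebellum (6) and for cortex against cerebellum (8 in young, 7 in aged mice) stayed within 1.5 times under the 13 alternatives run, and no difference of a called gene changed sign. Of 618 values of called genes, 597 kept their call and 21 lost it. Scaling by the array median left 1 gene called for the difference of the aging effect between regions in place of 5. For Ttpa-/- mice on the deficient diet in the cerebellum, 0 in place of 1 genes were called with median scaling, normexp background correction, a fit of the compared groups alone and the methods' t-test with adjusted p. In the cortex, another Siglech probe, chosen after seeing the data, gave 1 in place of 0. Leaving out single arrays gave 0 to 1 in each of these 2 comparisons, with 1 in the cortex without replicate 4 of the aged wild-type controls and 0 in the cerebellum without replicate 1 or 3 of either group. The other Siglech probe also gave 1 in place of 0 for wild-type mice on the deficient against the normal diet in the cortex. With the replicate number as a block, 6 genes were called for the difference between regions, and the other counts were equal; at most 3 of 4 same-numbered pairs deviated together (3 in aging in the cortex and in cortex against cerebellum in aged mice, among others). A block for slide could not be fitted, and the t-test was not run for differences between regions. Median scaling put the median of all probes at -0.19 (wild-type deficient against normal, cerebellum), 0.17 and 0.15 (Ttpa-/- deficient and supplemented against wild-type deficient, cerebellum) and -0.14 (the latter in the cortex), where it otherwise lay near 0. The cause of the lost calls was not tested.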

Other observations

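Within an array the log2 ratio of the P2ry13 to the P2ry12 signal does not depend on scaling. It lay between -1.55 and -1.34 in the young cerebellum, between -1.02 and -0.73 in the aged wild-type cerebellum on the normal diet, and between -0.67 and -0.39 on the deficient diet, 4 arrays each. In the cerebellum of Ttpa-/- mice it lay between -1.28 and -0.78 on the deficient and between -1.18 and -0.49 on the supplemented diet. In the cortex it lay between -1.53 and -1.25 in young mice, between -1.62 and -1.44 in aged mice on the normal diet and between -1.24 and -1.02 on the deficient diet, and in Ttpa-/- mice between -1.60 and -0.71 on the deficient and between -1.56 and -1.09 on the supplemented diet. The ratio was looked at after its values were seen and was not tested.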
